A study of Mus musculus with 6 samples.

Results

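The polycystin and inherited polycystic disease genes described here were *Pkd1*, *Pkd2*, *Pkhd1*, *Ganab*, *Prkcsh*, *Sec63*, *Dnajb11*, *Pkd1l1* and *Pkd2l1*. They were chosen by symbol, and all 9 were found among the 55367 gene symbols listed for each library. PolyA RNA was sequenced from DBA-positive kidney cells of WT, ADPKD and ADPKD+MMPP mice, 2 libraries for each of the 3 groups, and all are labelled Day115. DBA, a lectin from a plant, attaches to epithelial cells of the collecting duct, and was used to pull the cells down after digestion of the kidney. The WT mice received saline. The ADPKD mice were males with floxed *Pkd1* alleles and a *Cre/Esr1* transgene, in which tamoxifen activated Cre and deleted *Pkd1*, and they also received saline. The ADPKD+MMPP mice had the same deletion and received repeated intravenous injections of MMPP, a small melanin-like nanoparticle that carries polyethylene glycol and chelated manganese. The promoter that drives Cre, the exons that are floxed, and whether the WT mice carried Cre or received tamoxifen were not given in the sources used here.

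Polycystin 1 and polycystin 2, the products of *Pkd1* and *Pkd2*, form a receptor and channel complex in the primary cilium of tubule cells, and loss of either causes autosomal dominant polycystic kidney disease. Fibrocystin, the product of *Pkhd1*, is a membrane protein of cilia in collecting duct and bile duct cells, and its loss causes the recessive form. The other disease genes work in the endoplasmic reticulum (ER), where glucosidase II trims glucose from new glycoproteins, *Sec63* serves the channel through which proteins enter and *Dnajb11* assists the chaperone BiP, and polycystin 1 passes through this machinery as it matures.

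Expression was deposited as FPKM, which scales read numbers by gene length and library size, so that levels of genes within a library are given per length. The product of FPKM and exon length lay near whole multiples of a step, taken as a single read. This step gave the read total by which each library was scaled. The totals were 30580000 and 30960000 reads for WT, 33080000 and 32060000 for ADPKD, and 11810000 and 10910000 for ADPKD+MMPP. How many reads were sequenced is not known here. Among low read numbers that came out whole, odd numbers made up from 38.7% to 40.3% in WT and ADPKD, but 9.20% and 8.93% in ADPKD+MMPP. The libraries with low totals and few odd read numbers are those of 1 condition. MMPP treatment thus cannot be told apart from the way these libraries were made or their reads counted. Whether the same counting settings were used for all 6 libraries is not known here, and this limit holds for each level, ratio, rank and fold change of ADPKD+MMPP below. The 14862 genes that reached 1 FPKM in 2 or more libraries were tested with limma on log2(FPKM + 1), with all 6 libraries fitted together. Calls needed a 1.5-fold change or more with an unadjusted P under 0.05, and fold changes on this scale understate the change of genes with low FPKM. Nothing in the labels says that the libraries of a group came from separate animals, so p-values measure the spread between these libraries, which may be technical.

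Of the 9 genes, 7 passed the filter on low values, and *Pkd1l1* and *Pkd2l1* did not. In ADPKD against WT, which asks what differs once *Pkd1* is deleted, 3 of the 7 genes were called, beside 26.7% of all genes tested. *Pkd2* and *Pkhd1* were the 2 called higher, beside 14.2% of all genes, and *Pkd1* was the 1 called lower, beside 12.5%. In ADPKD+MMPP against ADPKD, which asks what differs after treatment, 5 of the 7 genes were called, beside 70.9% of all genes. *Pkd2* and *Pkhd1* were the 2 called higher, beside 27.9%, and *Pkd1*, *Ganab* and *Prkcsh* were the 3 called lower, beside 43%. In ADPKD+MMPP against WT, 5 of the 7 genes were called, beside 73.9% of all genes. The 2 higher and 3 lower genes were again these, beside 30.1% and 43.8%. The 3 comparisons share libraries, and the shares of members called after treatment lie near those of all genes.

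**Figure D1:**
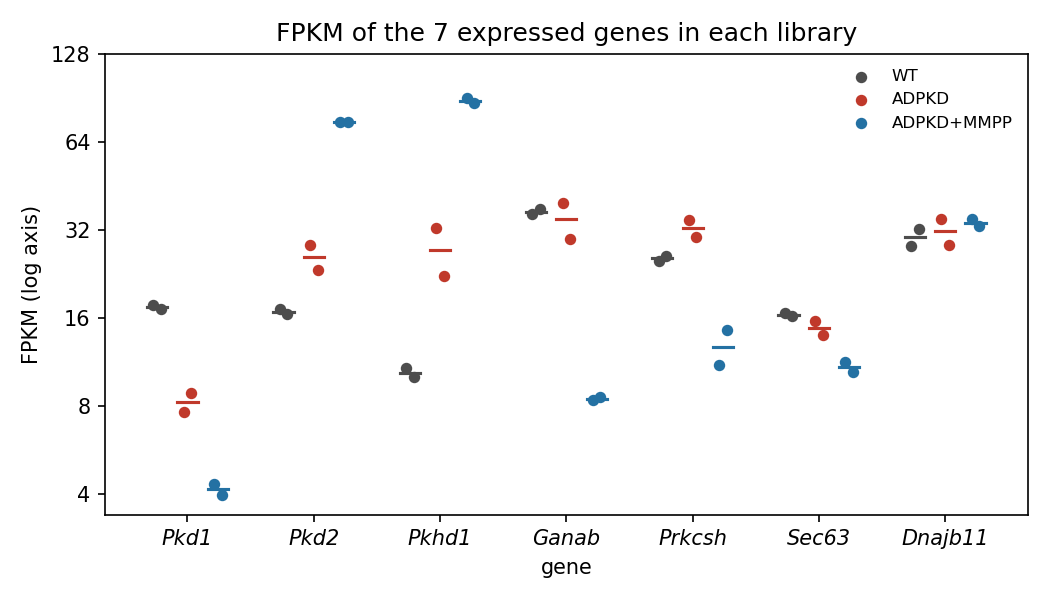
FPKM (log axis) of the 7 genes that passed the filter, with a point for each of the 2 libraries per group and a line at the group mean. *Pkd1* falls from 17.5 FPKM in WT to 4.16 in ADPKD+MMPP, while *Pkd2* and *Pkhd1* reach 74.9 and 88.7 in ADPKD+MMPP.

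*Pkd1* lies on chromosome 17 from 24549834 to 24596508 (GRCm38, plus strand), and its exons cover 17415 bases. It had 17.7 and 17.2 FPKM in WT, 7.64 and 8.91 in ADPKD, and 4.34 and 3.99 in ADPKD+MMPP. The 3 groups did not overlap, with WT high, ADPKD between and ADPKD+MMPP low. The ADPKD mean of 8.27 ± 0.898 FPKM (SD, n = 2) was 47.3% of the WT mean of 17.5 ± 0.38 (SD, n = 2), and the log2 fold change was -1.0 (95% interval -1.31 to -0.68, limma adjusted p = 0.00566). The deleted gene was thus lower in both libraries labelled ADPKD than in both WT libraries. In read numbers, *Pkd1* had 9448 and 9277 reads in WT, 4399 and 4973 in ADPKD, and 892 and 758 in ADPKD+MMPP. The FPKM covers the whole gene, so reads from deleted exons and from the exons that remain are not separated, nor are cells with and without the deletion. In a bulk sample fewer cells of a type and less RNA per cell cannot be told apart either.

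After MMPP treatment the *Pkd1* mean was 4.16 ± 0.247 FPKM (SD, n = 2), which is 50.3% of the ADPKD mean and 23.8% of the WT mean. Its log2 fold change against ADPKD was -0.84 (95% interval -1.16 to -0.53, limma adjusted p = 0.00155), and with the median of all genes tested, -0.36, taken off it was -0.48. It was not called with TMM factors, at -0.56, after quantile normalization, at -0.32, or with each library centred by transcript structure (described further on), at -0.18. Against WT its log2 fold change was -1.84 (95% interval -2.15 to -1.53, limma adjusted p = 7.23e-05), and -1.18 with that centring. *Tsc2*, the tuberous sclerosis gene that runs toward *Pkd1* on the opposite strand, shares 693 exon bases with it, or 3.98% of the exon bases of *Pkd1*. *Tsc2* had 13.4 and 14.5 FPKM in WT, 8.73 and 6.70 in ADPKD, and 1.55 and 1.70 in ADPKD+MMPP, and was thus lower in the same order of groups. Its log2 fold changes were -0.79 in ADPKD against WT and -1.72 in ADPKD+MMPP against ADPKD. The share of its exon bases found in a single transcript, the measure used for that centring, was 33.2%. Genes with shares from 30.2% to 35% had a median of -1.06 in ADPKD+MMPP against ADPKD, so the fall of *Tsc2* after treatment carries the same limit. Whether the reads were counted by strand is not given in the sources used here, so reads in the shared bases cannot be assigned to 1 of the 2 genes.

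*Pkd2*, the channel subunit, lies on chromosome 5 from 104459450 to 104505819 (plus strand). It had 17.2 and 16.5 FPKM in WT, 28.5 and 23.3 in ADPKD, and 75.1 and 74.8 in ADPKD+MMPP. Here the order of the groups was the opposite of that of *Pkd1*, again with no overlap. *Pkd2* changed in ADPKD against WT by a log2 fold change of 0.59 (95% interval 0.24 to 0.93, limma adjusted p = 0.0298), which is at the 1.5-fold threshold itself. The call was lost without ADPKD replicate 1, at 0.44, without WT replicate 2, at 0.56, under TMM factors, at 0.55, and with a common FPKM sum, at 0.50. After treatment the *Pkd2* mean was 289% of the ADPKD mean and 444% of the WT mean. The log2 fold change against ADPKD was 1.5 (95% interval 1.16 to 1.84, limma adjusted p = 0.000223), higher than that of 90.6% of all genes tested. Against WT it was 2.09 (95% interval 1.75 to 2.43, limma adjusted p = 6.33e-05).

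Because *Pkd1* and *Pkd2* moved apart, the ratio of *Pkd2* to *Pkd1* within a library differed widely between groups. It was 0.971 and 0.959 in WT, 3.74 and 2.62 in ADPKD, and 17.3 and 18.7 in ADPKD+MMPP. The FPKM of the 2 subunits was thus close to equal in WT only, and the groups did not overlap. A factor common to all genes of a library leaves this ratio as it is, but centring by transcript structure does not. With that centring the log2 fold changes after treatment were 1.08 for *Pkd2* and -0.18 for *Pkd1*, and so lay closer together. No separate test of this ratio was made.

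*Pkhd1* lies on chromosome 1 from 20057779 to 20618064 (minus strand). It had 10.8 and 10.04 FPKM in WT, 32.4 and 22.4 in ADPKD, and 90.8 and 86.7 in ADPKD+MMPP. WT was low, ADPKD between and ADPKD+MMPP high, and the ADPKD libraries stood further apart from each other than the libraries of the other groups did. For ADPKD against WT the log2 fold change was 1.29 (95% interval 0.82 to 1.77, limma adjusted p = 0.00811), higher than that of 95.5% of all genes tested. After treatment it was 1.68 against ADPKD (95% interval 1.21 to 2.15, limma adjusted p = 0.000493) and 2.97 against WT (95% interval 2.50 to 3.45, limma adjusted p = 5.81e-05). These were 0.60 and 1.77, both called, with centring by transcript structure. The ratio of *Pkhd1* to *Pkd2* rose from 0.627 and 0.609 in WT to 1.14 and 0.961 in ADPKD, and was 1.21 and 1.16 in ADPKD+MMPP. With that centring *Pkhd1* rose less than *Pkd2* after treatment, at 0.60 and 1.08 against ADPKD. *Pkhd1* was the lowest of the 7 genes in WT and the highest in ADPKD+MMPP.

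*Ganab* encodes the catalytic subunit of glucosidase II, on chromosome 19 from 8898071 to 8916672. It had 36.3 and 37.8 FPKM in WT, 39.7 and 29.9 in ADPKD, and 8.39 and 8.60 in ADPKD+MMPP. The WT values lay between the ADPKD values, and the ADPKD+MMPP values lay far below both groups. For ADPKD against WT the log2 fold change was -0.10 (95% interval -0.50 to 0.30, limma adjusted p = 0.676), and it was 0.10 without ADPKD replicate 2. After treatment *Ganab* fell to 24.4% of the ADPKD mean, with a log2 fold change of -1.90 (95% interval -2.30 to -1.5, limma adjusted p = 0.000169), and with centring by transcript structure it was at -0.52 and not called. Against WT it was -2.0 (95% interval -2.40 to -1.60, limma adjusted p = 0.00012), and -0.64 with that centring.

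*Prkcsh* encodes the subunit that holds glucosidase II in the ER, and is a gene of polycystic liver disease on chromosome 9 from 22002806 to 22014222. It had 25.2 and 26.2 FPKM in WT, 34.8 and 30.2 in ADPKD, and 11.1 and 14.5 in ADPKD+MMPP. ADPKD was the highest group and ADPKD+MMPP the lowest, without overlap. For ADPKD against WT the log2 fold change was 0.33 (95% interval -0.08 to 0.73, limma adjusted p = 0.196) and was not called. After treatment it was -1.29 against ADPKD (95% interval -1.70 to -0.88, limma adjusted p = 0.0008) and -0.96 against WT (95% interval -1.37 to -0.55, limma adjusted p = 0.00246), and the latter was not called, at -0.32, with the same centring. The ratio of the catalytic to the retaining subunit was 1.44 in both WT libraries, 1.14 and 0.99 in ADPKD, and 0.759 and 0.592 in ADPKD+MMPP, which is lower in each group than in the one before. The drop after treatment was not kept with centring by transcript structure, since *Ganab* was at -0.52 and *Prkcsh* at -0.64 against ADPKD.

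*Sec63*, another polycystic liver disease gene, lies on chromosome 10 from 42761496 to 42832514. It had 16.6 and 16.3 FPKM in WT, 15.7 and 14.0 in ADPKD, and 11.3 and 10.5 in ADPKD+MMPP. The groups did not overlap, yet no fold change of the main test, on log2(FPKM + 1), reached 1.5. The ADPKD+MMPP mean was 66.2% of the WT mean in FPKM. The log2 fold change was -0.14 in ADPKD against WT. It was -0.41 in ADPKD+MMPP against ADPKD (limma adjusted p = 0.0219), where it was -0.70 and called with a common FPKM sum, -0.10 with TMM factors and -0.21 under quantile normalization, and turned to 0.70 with centring by transcript structure. Against WT it was -0.55 (limma adjusted p = 0.00673), where it was called in 4 alternatives and turned to 0.58 with that centring. The change after treatment lay close to the median of all genes, at 48.6% of the genes below it.

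*Dnajb11* lies on chromosome 16 from 22857845 to 22879634. It had 28.3 and 32.4 FPKM in WT, 35.0 and 28.5 in ADPKD, and 34.8 and 33.1 in ADPKD+MMPP. All 3 groups lay within a narrow range, and the ADPKD libraries spanned nearly all of it. The log2 fold changes were 0.06 in ADPKD against WT (95% interval -0.31 to 0.43), 0.10 in ADPKD+MMPP against ADPKD (95% interval -0.27 to 0.47) and 0.16 in ADPKD+MMPP against WT (95% interval -0.21 to 0.53). None was called, and the sign turned with the scaling, at -0.02, -0.20 and -0.22 with a common FPKM sum. Quantile normalization gave -0.04 for both comparisons with ADPKD+MMPP, and TMM factors gave 0.43 against ADPKD and 0.46 against WT, not called. With centring by transcript structure *Dnajb11* was called higher in both, at 0.75 against ADPKD and 0.80 against WT.

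*Pkd1l1* and *Pkd2l1* are homologs of the polycystins, known from the sensing of flow in the embryonic node and from sensory cells. *Pkd1l1* had 0.240 and 0.0888 FPKM in WT, or 56 and 21 reads, and 0.0633 and 0.0572 FPKM in ADPKD, or 16 and 14 reads. It is listed at 0 in both ADPKD+MMPP libraries, where 3 reads would have given 0.0333 and 0.036 FPKM. *Pkd2l1* had 0.0463 and 0.0183 FPKM in WT, or 5 and 2 reads, and is listed at 0 in the ADPKD and ADPKD+MMPP libraries. All 37 mitochondrially encoded symbols, which every cell uses, are also listed at 0 in these files, so a listed 0 gives no measure of expression here. No fold change of these homologs is given, because their values lie at or near 0.

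The order of the levels also differed between groups. In WT it ran from *Ganab*, with a mean of 37.0 FPKM, through *Dnajb11* (30.3), *Prkcsh* (25.7), *Pkd1* (17.5), *Pkd2* (16.9) and *Sec63* (16.5) to *Pkhd1* (10.4). The libraries of *Pkd1* and *Pkd2* overlapped, as did those of *Pkd2* and *Sec63*. In ADPKD the order was *Ganab* (34.8 FPKM), *Prkcsh* (32.5), *Dnajb11* (31.8), *Pkhd1* (27.4), *Pkd2* (25.9), *Sec63* (14.9) and *Pkd1* (8.27), and neighbours overlapped from *Ganab* down to *Pkd2*. In ADPKD+MMPP it was *Pkhd1* (88.7 FPKM), *Pkd2* (74.9), *Dnajb11* (34.0), *Prkcsh* (12.8), *Sec63* (10.9), *Ganab* (8.50) and *Pkd1* (4.16), where *Prkcsh* and *Sec63* overlapped. *Pkd1* thus ranked between 2835 and 2937 among all symbols in WT, at 5927 and 5201 in ADPKD and between 6321 and 6580 in ADPKD+MMPP.

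The change after MMPP treatment moved with the transcript structure of genes in general. Over the 12374 protein-coding genes tested, cut into 20 bins by the share of exon bases found in a single annotated transcript of GENCODE vM21, the median log2 fold change in ADPKD+MMPP against ADPKD went from -1.70 in the bin with the lowest shares to 1.15 in a bin at 100%. The share was 91.6% in *Pkhd1* and 75.8% in *Pkd2*, which were higher after treatment. It was 56.3% in *Pkd1*, 52.9% in *Prkcsh* and 30.4% in *Ganab*, which were lower. It was 52.1% in *Dnajb11* and 39.5% in *Sec63*.

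Set against the genes of their own bin, *Pkd2* was higher after treatment than 86.6% of 618 genes and *Pkhd1* than 78.8% of 618. *Dnajb11* was above 67.5% of the genes of its bin, *Sec63* above 66.2%, *Pkd1* above 36%, *Ganab* above 26.7% and *Prkcsh* above 25.5%. With each library centred within these bins, the log2 fold change after treatment was 1.08 for *Pkd2* and 0.60 for *Pkhd1*, both called higher, and -0.64 for *Prkcsh*, called lower. The calls of *Ganab*, at -0.52, and *Pkd1*, at -0.18, were lost. *Sec63* turned to 0.70 and *Dnajb11* was at 0.75, both called higher. The same centring in ADPKD against WT left *Pkd1* and *Pkhd1* called, while *Pkd2*, at 0.55, was not.

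**Figure D2:**
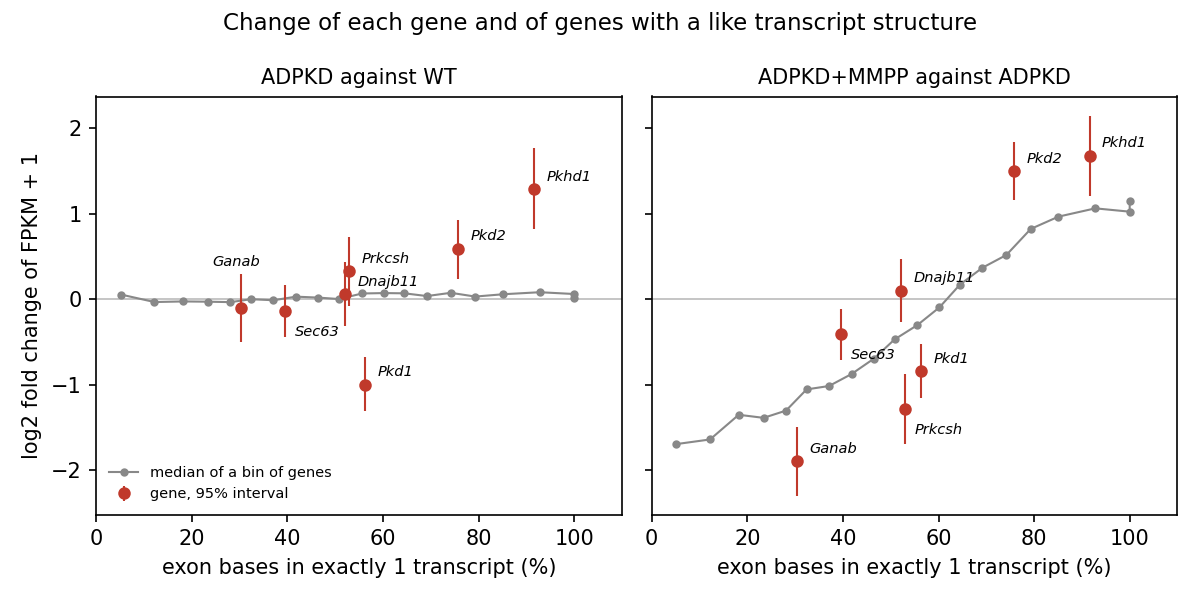
Log2 fold change of FPKM + 1 for ADPKD over WT and for ADPKD+MMPP over ADPKD, plotted by the percentage of exon bases found in a single annotated transcript. Red points are the 7 genes with 95% intervals from limma, and grey points are medians of 20 bins of protein-coding genes, which stay near 0 in the first comparison and go from -1.70 to 1.15 in the second.

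Other genes of the same pathways were taken from lists, whose counts stand beside 14.2% of all genes called higher and 12.5% lower in ADPKD against WT, and after treatment 27.9% higher and 43% lower. Of 4 further polycystin family genes, 2 passed the filter. Limma on FPKM called 0 of the 2 in ADPKD against WT, where 1 had an unadjusted P under 0.05. On recovered reads limma voom called 1 lower, beside 2142 of 14335 genes. *Pkd1l3*, a partner in an acid-sensing complex, had 1.83 and 1.74 FPKM in WT, 1.05 and 1.25 in ADPKD, and is listed at 0 in both ADPKD+MMPP libraries. *Pkd2l2* had 1.33 and 1.11 FPKM in WT, 1.86 and 1.54 in ADPKD, and 0.394 and 0.316 in ADPKD+MMPP. Both were called lower after treatment, but the fitted change of *Pkd1l3* is set against a listed 0 and is no measure of a fold. That of *Pkd2l2* was -0.99, and at -0.32 under quantile normalization it was not called.

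The list of ER N-glycosylation and glucose trimming held 26 tested genes. For ADPKD against WT, 1 was called higher and 0 lower. The list's median log2 fold change was 0.01, beside 0.03 for all genes tested. With a common FPKM sum these were -0.07 and -0.04, so the medians of the list and of all genes both turned. The called gene was *Alg10b*, a glucosyltransferase that adds the last glucose to the glycan precursor, with 6.98 and 6.14 FPKM in WT and 12.0 and 12.9 in ADPKD. After treatment 14 were called higher and 8 lower, and the median was 0.67, beside 27.9%, 43% and -0.36 for all genes. The split was 10 and 10 with a common FPKM sum, beside 3308 higher and 7074 lower of all 14862 genes. With centring by transcript structure it was 11 and 1, beside 4185 and 3027 of 12374 protein-coding genes. *Mogs*, which encodes glucosidase I and acts just before glucosidase II, had 7.19 and 6.33 FPKM in ADPKD and 36.3 and 37.8 in ADPKD+MMPP, a log2 fold change of 2.30. *Ddost* and *Rpn2* are both subunits of the oligosaccharyltransferase, and their values went apart. *Ddost* changed by 1.70 and *Rpn2* by -2.93 on the log2 scale after treatment, and *Alg10b* by -2.45. The call of *Alg10b* was lost with centring by transcript structure, at -0.34. The share of exon bases in a single transcript was 80.2% in *Mogs* and 100% in *Ddost*, and 30.2% in *Rpn2* and 2.81% in *Alg10b*.

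The ER translocon list held 16 tested genes, of which 2 were called higher and 0 lower in ADPKD against WT, with a median of 0.33, beside 0.03 for all genes. They were *Ssr2*, of the translocon-associated complex, and *Spcs3*, of the signal peptidase. *Ssr2* had 33.3 and 32.8 FPKM in WT and 53.4 and 54.4 in ADPKD, a log2 fold change of 0.69 (limma adjusted p = 0.00991). *Spcs3* had 7.05 and 6.64 FPKM in WT and 11.2 and 11.8 in ADPKD, a log2 fold change of 0.67 (limma adjusted p = 0.0118), and with centring by transcript structure it was at 0.54 and not called. After treatment 6 genes were called higher and 5 lower, beside 27.9% and 43% of all genes, with a median of -0.22. This median was 0.07 under TMM factors, where that of all genes went from -0.36 to -0.14. With a common FPKM sum 4 were higher and 8 lower, beside 3308 and 7074 of all 14862 genes. *Spcs3* (2.06) and *Sec62* (1.58), the partner of *Sec63* at the translocon, had the largest log2 fold changes upward. *Spcs1* (-3.61) and *Spcs2* (-2.96), of the same signal peptidase, had the largest downward. The share of exon bases in a single transcript was 100% in *Spcs3* and 81.1% in *Sec62*, and 11.6% in *Spcs1* and 56.7% in *Spcs2*. With centring by transcript structure 5 genes of the list were higher and 6 lower, beside 4185 and 3027 of 12374 genes.

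The list of *Hspa5*, which encodes BiP, and its co-chaperones held 13 tested genes. Limma on FPKM called 0 of them in ADPKD against WT, where 1 had an unadjusted P under 0.05 and the median was -0.10. Limma voom on recovered reads also called 0, while centring by transcript structure gave 1 called lower, beside 1674 of 12374 genes. After treatment 5 were called higher and 4 lower, beside 27.9% and 43% of all genes, with a median of 0.33. With a common FPKM sum 4 were higher and 5 lower, beside 3308 and 7074 of all 14862 genes. *Hspa5* had 579 and 704 FPKM in WT, 865 and 733 in ADPKD, and 68.1 and 69.4 in ADPKD+MMPP. It changed by -3.51 on the log2 scale after treatment and the BiP exchange factor *Hyou1* by -2.38. The co-chaperones *Sdf2l1* and *Dnajc3* changed by 2.43 and 1.62, and *Dnajc3* was at 0.56 and not called with centring by transcript structure. *Dnajb11*, which belongs to this machinery, lay between them.

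Of 30 other inherited cystic kidney and liver disease genes, 29 passed the filter. For ADPKD against WT, 6 were called higher and 2 lower, with a median of 0.13, beside 14.2%, 12.5% and 0.03 for all genes. By limma voom on recovered reads 8 were higher and 5 lower, beside 2351 and 2142 of 14335 genes. *Muc1*, a mucin of the apical surface and a gene of tubulointerstitial kidney disease, had 39.1 and 38.4 FPKM in WT and 201 and 276 in ADPKD, a log2 fold change of 2.57 (limma adjusted p = 0.00224). *Glis2*, a nephronophthisis gene, had 24 and 16.3 FPKM in WT and 79.3 and 62.0 in ADPKD, a log2 fold change of 1.77 (limma adjusted p = 0.00545). *Bicc1*, an RNA-binding protein whose loss gives cystic kidneys in mice, had 11.4 and 12.3 FPKM in WT and 43.0 and 41.1 in ADPKD, a log2 fold change of 1.74 (limma adjusted p = 0.00199). These were named because they had the largest called increases of the list.

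The 2 lower genes were *Tsc2* and *Lrp5*, a Wnt co-receptor, which had 21.7 and 20.5 FPKM in WT and 8.93 and 8.34 in ADPKD, a log2 fold change of -1.20 (limma adjusted p = 0.00357). After treatment 8 genes were called higher and 15 lower, beside 27.9% and 43% of all genes, with a median of -0.60. Under quantile normalization 8 were higher and 8 lower, with a median of 0.03. All 14862 genes then gave 5363 and 4577, with a median of 0.10. With centring by transcript structure 12 were higher and 4 lower, with a median of 0.44. The 12374 genes of that fit gave 4185 and 3027, with a median of 0.15. *Ren1*, the renin gene, and *Sec61b*, a translocon subunit, changed by 1.88 and 1.35 on the log2 scale. *Lrp5* changed by -2.97 and *Tsc1*, the partner of *Tsc2*, by -2.96.

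The list of polycystin trafficking and direct partners held 23 tested genes, and *Ryr2* did not pass the filter. Of these, 1 was called higher and 3 lower in ADPKD against WT, with a median of -0.13, beside 0.03 for all genes. *Gprc5a*, a retinoic acid-induced membrane receptor, had 61.3 and 52.3 FPKM in WT and 111 and 246 in ADPKD, a log2 fold change of 1.53 (limma adjusted p = 0.0305) that was 0.96 without ADPKD replicate 2. *Trpc1*, a channel that binds polycystin 2, had 10.4 and 9.28 FPKM in WT and 4.60 and 4.0 in ADPKD, a log2 fold change of -1.03 (limma adjusted p = 0.00646). *Pacs1*, a sorting adaptor, was at -0.64 (limma adjusted p = 0.035), and its call was lost without WT replicate 1, at -0.56, and without ADPKD replicate 2, at -0.54. The third lower gene was *Tsc2*.

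The other 19 partners were not called in this comparison, among them the ciliary carrier *Tulp3* and the Golgi-to-cilium factors *Rabep1*, *Gga1*, *Arl3* and *Arf4*. Their log2 fold changes lay between -0.53 in *Itpr1* and 0.51 in *Itpr3*. Without ADPKD replicate 1 these were called, at -0.79 and 0.93, and without ADPKD replicate 2 they were at -0.27 and 0.08. *Itpr1* was also called with a common FPKM sum, at -0.62, and under quantile normalization, at -0.63. After treatment 6 partners were called higher and 7 lower, beside 27.9% and 43% of all genes, with a median of -0.10. This median was 0.22 under TMM factors, where that of all genes went from -0.36 to -0.14. With centring by transcript structure 9 were higher and 5 lower, beside 4185 and 3027 of 12374 genes.

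Among the retromer subunits, which return polycystins from endosomes, *Vps35* and *Vps26b* were called higher after treatment, at 1.91 and 1.46 on the log2 scale. *Vps26a* was called lower, at -1.70, and turned to 0.24 with centring by transcript structure. *Vps29* was at -0.54 and not called, but was called lower with a common FPKM sum, at -0.81, and with that centring, at -1.35. *Rab8a*, a GTPase of ciliary transport, was at 1.79 and *Tulp3* at 1.5. *Jak2* had the lowest value, -3.89, with *Itpr1* at -2.62, *Pacs2* at -2.54, *Gga1* at -1.15 and *Arf4* at -1.11. The share of exon bases in a single transcript was 0.0795% in *Jak2*, 46.6% in *Itpr1* and 21.8% in *Pacs2*. The bin with the lowest shares, which holds *Jak2*, had a median of -1.70 after treatment. *Gga1* turned to 0.57 with that centring, and *Arf4*, at -0.45, was not called. *Gprc5a* was called higher at 1.09 and *Itpr3* at 0.81, and without ADPKD replicate 1 they were at 0.52 and 0.39 and not called, and without ADPKD replicate 2 at 1.66 and 1.24. *Itpr3* turned to -0.27 with centring by transcript structure, and *Gprc5a*, at 0.03, was not called.

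Markers of kidney cell types were read in the same libraries, since the cells sorted by DBA can be mixed, and the most abundant gene of each list is given by its mean over the 6 libraries. Principal cell markers, the main cells of the collecting duct, summed to 2096 and 2796 FPKM in WT, 2502 and 957 in ADPKD, and 5437 and 5458 in ADPKD+MMPP over 9 genes. *Aqp2* was the most abundant of them, at 1267 and 1776, 1392 and 677, and 3555 and 3499 FPKM in the same order. *Aqp2*, the defining water channel of collecting duct cells, was thus present in each of the 6 libraries, with ADPKD replicate 2 the lowest. Of 8 principal cell markers tested, 4 were called higher and 2 lower after treatment, beside 27.9% and 43% of all genes. With centring by transcript structure 1 was higher and 1 lower, beside 4185 and 3027 of 12374 genes. Intercalated cell markers summed to 302 and 324 FPKM in WT, 77.8 and 33.0 in ADPKD, and 238 and 241 in ADPKD+MMPP over 8 genes, with *Atp6v1b1* most abundant. All 8 of them were called lower in ADPKD against WT, beside 12.5% of all genes, and after treatment 7 were called higher and 0 lower by limma, beside 27.9% and 43%.

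Markers of other segments were present too. The 14 proximal tubule markers summed to 432 and 206 FPKM in WT, 818 and 186 in ADPKD, and 15227 and 14520 in ADPKD+MMPP, led by *Kap* with 12822 and 12116 FPKM in the last group. In ADPKD+MMPP against ADPKD, 11 of the 14 were called higher and 0 lower by limma, beside 27.9% and 43% of all genes. In the ADPKD+MMPP libraries the proximal tubule sum was thus above the principal cell sum. This order rests on *Kap*, without which the principal cell sum was the higher. The 6 thick ascending limb markers, led by *Umod*, summed to 1230 and 447 FPKM in WT, 607 and 196 in ADPKD, and 168 and 165 in ADPKD+MMPP. *Umod* went from 498 and 152 FPKM in ADPKD to 80.3 and 79.3 after treatment, while 2 of the 6 were called higher and 1 lower, with a median of 0.10. With centring by transcript structure 5 were higher and 0 lower, with a median of 1.95. All 12374 genes of that fit gave 4185 and 3027, with a median of 0.15. The 4 markers of the distal convoluted tubule, led by *Slc12a3*, summed to 115.5 and 103, 55.4 and 23.2, and 116 and 117 FPKM in the same order.

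Markers of cells from outside the tubule also had levels that differed between groups. The 5 podocyte markers, led by *Podxl*, summed to 900 and 1231 FPKM in WT, 205 and 90.8 in ADPKD, and 89.7 and 87.2 in ADPKD+MMPP. The 6 endothelial markers, led by *Cdh5*, summed to 786 and 654, 312 and 294, and 117 and 118 FPKM. All 5 and all 6 were called lower in ADPKD against WT, beside 12.5% of all genes. After treatment 3 podocyte markers were called lower, with a median of -2.24, and 4 endothelial markers, with a median of -1.67. In both lists 0 were called higher, beside 27.9% of all genes higher and 43% lower. *Podxl* alone had 84.1 and 80.8 FPKM in ADPKD+MMPP. The 7 macrophage markers, led by *Lyz2*, summed to 64.8 and 65.6, 482 and 577, and 1056 and 1108 FPKM, and all 7 were called higher in ADPKD against WT, beside 14.2% of all genes. After treatment 3 of the 7 were called higher and 4 lower, beside 27.9% and 43% of all genes, with a median of -0.94. With centring by transcript structure 2 were higher and 2 lower, with a median of -0.03. All 12374 genes of that fit gave 4185 and 3027, with a median of 0.15. *Lyz2* went from 188 and 224 FPKM in ADPKD to 568 and 565 after treatment. The 5 fibroblast markers, led by *Pdgfrb*, summed to 99.1 and 73.9, 128 and 145, and 132 and 140 FPKM. Of these, 3 were called higher and 1 lower in ADPKD against WT, beside 14.2% and 12.5%. After treatment 2 were called higher and 3 lower, beside 27.9% and 43%, with a median of -2.51. With centring by transcript structure 0 were higher and 3 lower, beside 4185 and 3027 of 12374 genes. *Pdgfrb* itself was at 91.3 and 65.6, 38.9 and 31.4, and 1.05 and 0.837 FPKM, against the direction of the fibroblast sum. No marker was at 0 in all 6 libraries. Marker levels thus moved in both conditions in which the polycystic disease genes changed, and their part in the values of those genes was not tested.

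Likeness to a gene was measured by Pearson's r of log2(FPKM + 1) over the 6 libraries, among 7624 other tested genes with a mean of at least 5 FPKM. The libraries fall into 3 groups, so a high r describes the order and spacing of the groups. *Rnf216*, *Ptpru* and *Notch1* were most like *Pkd1*, with r of 0.998, 0.997 and 0.996, and 31 genes were above 0.99. *Rnf216* had 10.8 and 10.4 FPKM in WT, 6.23 and 6.96 in ADPKD, and 4.48 and 4.54 in ADPKD+MMPP. *Cnn2*, *Erlin2* and *Atic* were most like *Pkd2*, each with r of 0.999, and 224 genes were above 0.99. *Cln6*, *Vnn1* and *1110008P14Rik* were most like *Pkhd1*, each with r of 0.999, and 88 genes were above 0.99. *Vnn1* had 1.34 and 1.18 FPKM in WT, 8.99 and 4.52 in ADPKD, and 41.9 and 37.6 in ADPKD+MMPP.

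Promoter windows from RefSeq (GRCm38.p6), each of 300 bases around the start that RefSeq gives, were found for 8 of the 9 genes, and *Pkd2l1* had no entry. The RefSeq start can differ from that of GENCODE, whose coordinates are given above. The window of *Pkd1l1*, chr11:8974660-8974959 on the minus strand, lies wholly upstream of the GENCODE gene, which spans 8826708 to 8973266, and that of *Prkcsh* lies mostly inside it. They were searched on both strands for the cAMP response element TGACGTCA and its core TGACG, which the full element contains, because CREB activity is named in the title of the study. The unfolded protein response element TGACGTGG, which also contains TGACG, and the ER stress elements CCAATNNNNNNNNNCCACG and ATTGGNCCACG were searched because several of the genes act in the ER. Of 32851 promoters in the table, 1.79% held TGACGTCA, 20.8% TGACG, 0.676% TGACGTGG, and 0.119% the first and 0.0365% the second ER stress element.

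Matches were found in 2 of the 8 windows. That of *Dnajb11* held the second ER stress element once and TGACG once, and that of *Prkcsh* held TGACG at 2 places. Their windows are shown with the matches in capitals, because they are the genes with a match, chr16:22857595-22857894 and chr9:22002738-22003037, both on the plus strand.
*Dnajb11*: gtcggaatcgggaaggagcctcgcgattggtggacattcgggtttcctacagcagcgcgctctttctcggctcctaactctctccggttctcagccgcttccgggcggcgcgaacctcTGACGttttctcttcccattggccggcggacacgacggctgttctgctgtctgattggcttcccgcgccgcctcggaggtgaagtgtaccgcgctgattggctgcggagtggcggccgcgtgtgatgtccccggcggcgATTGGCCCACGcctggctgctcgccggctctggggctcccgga
*Prkcsh*: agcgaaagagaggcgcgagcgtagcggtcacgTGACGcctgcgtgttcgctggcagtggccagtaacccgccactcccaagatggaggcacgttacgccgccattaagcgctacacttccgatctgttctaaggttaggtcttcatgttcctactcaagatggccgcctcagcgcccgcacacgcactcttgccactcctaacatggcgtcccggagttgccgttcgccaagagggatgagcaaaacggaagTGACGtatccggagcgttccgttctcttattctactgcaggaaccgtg

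*Pkd2* and *Pkhd1*, which were higher in both ADPKD and ADPKD+MMPP, held none of these motifs in their windows. These windows are shown because the genes moved together, *Pkd2* at chr5:104459207-104459506 on the plus strand and *Pkhd1* at chr1:20618008-20618307 on the minus strand, read 5′ to 3′ along the gene.
*Pkd2*: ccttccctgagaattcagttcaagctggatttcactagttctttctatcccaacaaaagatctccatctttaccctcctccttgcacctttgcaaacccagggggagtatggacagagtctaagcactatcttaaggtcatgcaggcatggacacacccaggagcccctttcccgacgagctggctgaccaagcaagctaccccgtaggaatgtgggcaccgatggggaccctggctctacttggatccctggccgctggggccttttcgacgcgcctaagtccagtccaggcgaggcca
*Pkhd1*: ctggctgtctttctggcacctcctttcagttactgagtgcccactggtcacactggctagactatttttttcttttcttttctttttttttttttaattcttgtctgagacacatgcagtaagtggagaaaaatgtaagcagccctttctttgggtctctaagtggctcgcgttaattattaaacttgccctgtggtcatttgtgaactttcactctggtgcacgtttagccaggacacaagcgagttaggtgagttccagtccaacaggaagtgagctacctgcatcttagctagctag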

How the data were processed

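Per the labels, polyA RNA came from kidney cells positive for DBA, with 2 libraries for each of the WT, ADPKD and ADPKD+MMPP groups. The authors aligned reads to GRCm38 (mm10) with HISAT2 2.1.0, counted them with featureCounts 1.6.0 and deposited FPKM.

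Of 55367 symbols, 53253 matched 1 gene of GENCODE vM21. FPKM times exon length gave whole read numbers, within 0.1 read, for between 98.66% and 98.77% of the values above 0. The test was limma 3.58.1 (R 4.3.3) of log2(FPKM + 1), with Benjamini-Hochberg adjustment over all 14862 genes tested. The limma fit and the TMM factors were tested on simulated data, and the other steps were not. Other genes named are the largest called changes of each list, the direct partners, and the 3 genes most like *Pkd1*, *Pkd2* and *Pkhd1*. The members and lists were chosen with earlier results of these data known. Alternatives covered pseudocount, filter, scaling, spread, thresholds, replicate block, replicates left out and centring by transcript structure. Limma voom on recovered reads was chosen after seeing the data.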

Additional observations from a re-analysis of the deposited data

How the results depend on the processing

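The fold changes of the 7 tested genes in 3 comparisons gave 357 values under the alternatives, of which 325 kept direction and side of the threshold, 14 lost a call, 7 gained one and 11 changed sign. *Dnajb11* changed sign most often. In ADPKD against WT it was at -0.02 with a common FPKM sum, -0.03 without WT replicate 1 and -0.08 without ADPKD replicate 1. After treatment it was at -0.20 against ADPKD and -0.22 against WT with a common sum, at -0.04 in both under quantile normalization, and at -0.04 against ADPKD without ADPKD replicate 2. Without 1 library at a time, *Ganab* in ADPKD against WT ranged from -0.30 to 0.10 and *Dnajb11* from -0.08 to 0.20, with the ends of both ranges given by leaving out an ADPKD library. Centred by transcript structure, *Sec63* was at 0.70 against ADPKD and 0.58 against WT, *Gga1* at 0.57, *Vps26a* at 0.24 and *Itpr3* at -0.27 after treatment. *Pkd1l3* was at 1.0 in place of -1.11, but it is listed at 0 in both ADPKD+MMPP libraries, so neither value is a measure of change. The cause was not tested.

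At a fold change of at least 2, ADPKD against WT had 1951 called genes in place of 3970, and 1 of the 7 genes in place of 3, because the threshold is higher. *Pkd1*, at -1.0, lay just under it. Quantile normalization moved the median of all genes in ADPKD+MMPP against ADPKD from -0.36 to 0.10, and 54% of called genes were then higher, beside 39.3%. With a common FPKM sum the median was -0.55 and 31.9% were higher. With centring by transcript structure, which also limits the test to 12374 protein-coding genes, this was 58%. In ADPKD+MMPP against WT the share was 52.9%, 32% and 57.3% in this order, beside 40.8%. On recovered reads limma voom called 4493, 10346 and 10741 genes, and 3, 5 and 6 of the 7, with *Sec63* gained against WT.

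With the replicate block, 4055, 10595 and 11038 genes were called, and no call of the 7 genes changed. The deviations of same-numbered libraries correlated with r of 0.129, -0.00796 and 0.0137 between groups. The labels do not say whether same-numbered libraries share a batch or a day. A fit without 1 library assumes that the lone library varies like the other groups. With 2 libraries per group the spread within a group is poorly known.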
